A study of Mus musculus with 24 samples.

Results

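The genes described here make and assemble ribosomes. They were chosen by symbol: the RNA polymerase I subunits named Polr1, the Nop, Nol, Utp and Rrp families, Imp3, Imp4, Fbl, Ncl, the Npm family, Dkc1 and Bop1, with pseudogenes left out. The rule matched 51 of the 55291 genes in the count files. By known role, 5 were RNA polymerase I subunits, 5 were proteins of the snoRNPs that modify rRNA, 23 acted on the small subunit, 11 acted on the large subunit or on rRNA itself, and 4 were nucleolar chaperones or nucleolin. The other 3 (Nol3, Nol4 and Nol4l) were matched by symbol and have no known role in ribosome assembly.

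Total RNA was sequenced from control and MERVL-KD mouse embryos at the 2-cell (2C), 4-cell (4C) and 8-cell (8C) stages. Each of the 6 groups had 2 libraries, and each library pooled 30 embryos freed of the zona pellucida. The embryos came from matings of B6D2F1 mice and are labelled with the background strain BDF2, and zygotes received 20 µM antisense oligonucleotide (ASO) in the male pronucleus. Control embryos received a scrambled ASO, and MERVL-KD embryos received ASOs against MERVL, an endogenous retrovirus that is transcribed at the 2C stage. The labels put 2C embryos at 1.5 dpc and 4C and 8C embryos at 2.5 dpc. All groups share the injection, and no uninjected embryos were analysed here. Values are shares of a library's counts over all cells of the pooled embryos, so they give no amount of RNA per embryo, and fewer cells expressing a gene and less of its RNA per cell cannot be told apart.

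Ribosomes are built in the nucleolus. RNA polymerase I transcribes the precursor rRNA, the small subunit processome folds and cleaves it, box C/D and H/ACA snoRNPs methylate and pseudouridylate it, and separate factors mature the large subunit. In the mouse, rRNA synthesis is low after fertilization and resumes during cleavage, while the compact nucleolus precursor bodies of the zygote turn into working nucleoli.

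Libraries held 28167085 to 41482526 counts, and members took 0.468% to 1.04% of them. MERVL-int, the internal part of the retrovirus, took 6.33% and 6.57% of the counts in control 2C embryos and 0.157% and 0.143% in MERVL-KD 2C embryos, so these libraries follow their labels. Summed markers of cumulus and granulosa cells reached at most 7.75 CPM in any library and those of sperm and spermatids at most 3.33 CPM. CPM are counts scaled to library size multiplied by a TMM factor, so they differ from counts scaled by library size alone. Sites for the 3 MERVL ASOs, allowing 2 mismatches over 20 bases, were searched on the transcribed strand of every gene. They were found in 176 genes, or 0.318%, and in 0 members.

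Promoters are shown for members that were called lower in MERVL-KD embryos at both 4C and 8C, so that their starts can be compared. Bop1 was called at both stages too, and its promoter is not shown. RefSeq promoters (GRCm38.p6, 250 bases before to 50 after a start) were found for 39 of the 51 members. The sequences below run 5′ to 3′, and capitals mark the E-box CACGTG, which MYC family and other bHLH factors can bind, and ACTTCCGG, a motif of ETS factors. Each was searched on both strands, and the 2 motifs share no bases in these windows.
Nop2 (chr6:125131633-125131932, plus strand): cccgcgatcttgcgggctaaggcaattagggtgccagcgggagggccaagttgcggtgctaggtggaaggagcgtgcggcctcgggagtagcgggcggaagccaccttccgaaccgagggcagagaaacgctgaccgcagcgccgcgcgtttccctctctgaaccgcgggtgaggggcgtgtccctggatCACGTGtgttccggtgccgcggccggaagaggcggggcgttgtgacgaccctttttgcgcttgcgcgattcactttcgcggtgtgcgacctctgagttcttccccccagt
Utp4 (chr8:106893390-106893689, plus strand): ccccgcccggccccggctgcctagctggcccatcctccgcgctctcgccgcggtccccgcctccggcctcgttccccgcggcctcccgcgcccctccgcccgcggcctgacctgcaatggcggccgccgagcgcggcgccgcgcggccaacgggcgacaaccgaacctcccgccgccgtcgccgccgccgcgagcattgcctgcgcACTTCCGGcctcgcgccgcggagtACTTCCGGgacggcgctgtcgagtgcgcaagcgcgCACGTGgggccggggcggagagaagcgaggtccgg
Polr1d (chr5:147077096-147077395, plus strand): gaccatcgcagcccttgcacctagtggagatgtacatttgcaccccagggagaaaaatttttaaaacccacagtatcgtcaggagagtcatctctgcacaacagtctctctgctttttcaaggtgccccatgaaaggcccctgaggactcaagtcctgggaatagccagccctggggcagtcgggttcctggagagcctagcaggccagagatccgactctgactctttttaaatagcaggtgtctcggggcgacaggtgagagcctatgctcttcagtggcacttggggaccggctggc
Nop56 (chr2:130274162-130274461, plus strand): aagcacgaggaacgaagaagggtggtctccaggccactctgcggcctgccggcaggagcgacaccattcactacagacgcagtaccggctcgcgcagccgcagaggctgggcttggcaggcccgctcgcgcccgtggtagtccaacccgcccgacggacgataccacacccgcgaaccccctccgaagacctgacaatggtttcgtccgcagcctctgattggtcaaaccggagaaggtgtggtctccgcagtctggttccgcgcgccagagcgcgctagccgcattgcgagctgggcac
The Nop2 window held 1 E-box, the Utp4 window held 1 E-box and 2 ETS motifs, and neither motif was found in the Polr1d and Nop56 windows. The Polr1d window lies inside the counted gene, which starts at chr5:147077050. It therefore does not cover that start, and the region before that start was not searched in this window. An E-box was present in 23.9% of the 46 member promoters and in 7.15% of all 32851 promoters of this length. The ETS motif was present in 15.2% of member promoters and in 3.89% of all. Member promoters also held more CG dinucleotides, with a median of 20.5 against 7 over all promoters, and both motifs contain CG.

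The first question was how members differed between the stages of control embryos. Control 4C and 8C embryos are both labelled 2.5 dpc, so that step compares embryos of the same labelled age that had cleaved less or more. The embryos picked at 4C may therefore be slower ones. The part of this in the members' values was not tested. In one edgeR fit of the 12 libraries, a call needed a change of at least 2-fold with an adjusted p below 0.05. From 2C to 4C, 18 members rose and 2 fell, where 20.7% of genes rose and 24.3% fell. Without the fold threshold 35 rose and 5 fell, where 26.4% of genes rose and 28.7% fell. The median log2 fold change of members was 0.62, against -0.06 over all 24040 genes tested. By role and without the fold threshold, 18 of 23 small subunit members rose and 3 fell, 7 of 11 large subunit members rose and 1 fell, and 4 of 5 polymerase subunits and 4 of 5 snoRNP proteins rose. The largest rise was that of Nol6, a small subunit factor, which had 21.6 and 27.3 CPM in control 2C embryos and 124 and 110 CPM at 4C. The 2C and 4C libraries did not overlap, and the log2 fold change was 2.26 ± 0.13 (SE, adjusted p = 3.18e-12). Nop53, which acts in large subunit maturation, rose by 1.88 ± 0.11 on the log2 scale (SE, adjusted p = 2.45e-12).

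**Figure D1:**
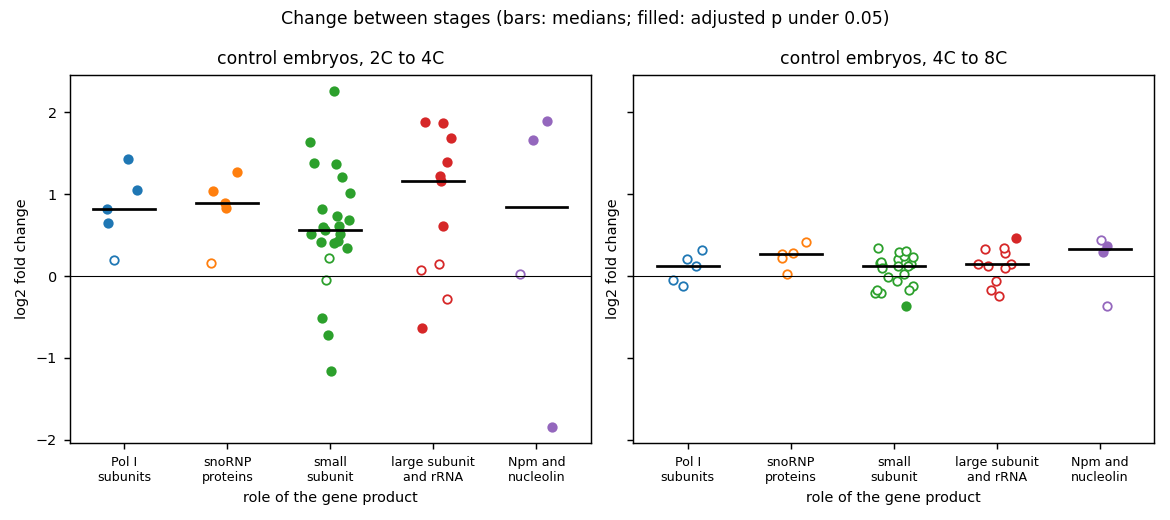
Log2 fold change between stages of control embryos (y axis) of the 48 members with a known role in ribosome assembly, by role (x axis), from 2C to 4C (left) and from 4C to 8C (right). Points are genes, filled where the adjusted p was under 0.05, and black bars are medians. Most points lie above 0 from 2C to 4C, with Nol6 highest at 2.26 and Npm2 lowest at -1.84, and from 4C to 8C the points drawn lie between -0.37 and 0.46. Nol3, Nol4 and Nol4l are not drawn.

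The nucleophosmin family split. Npm1, the abundant nucleolar chaperone of growing cells, had 424 and 464 CPM in control 2C embryos and 1627 and 1678 CPM at 4C, a log2 fold change of 1.90 ± 0.09 (SE, adjusted p = 7.34e-14). Npm2, the oocyte nucleoplasmin, went the other way and had 108 and 97.9 CPM at 2C and 29.9 and 27.4 CPM at 4C, a log2 fold change of -1.84 ± 0.13 (SE, adjusted p = 4.93e-11). No library of one stage reached the values of the other for either gene. Npm3 stayed near 11.2 to 11.3 CPM per kilobase at both stages and did not pass the test. Per kilobase of exon, mean Npm1 was 167 ± 10.6 CPM at 2C and 801 ± 37.7 CPM at 8C (SD, n = 2), and Npm2 was 99.4 ± 6.92 and 21.4 ± 0.91 CPM. Nucleolin (Ncl), which binds rRNA and its genes, rose from 711 and 764 CPM to 2368 and 2284 CPM, a log2 fold change of 1.66 ± 0.09 (SE, adjusted p = 8.62e-13). In the same step Utp14b, a small subunit factor, fell from 379 and 443 CPM to 172 and 197 CPM, a log2 fold change of -1.16 ± 0.11 (SE, adjusted p = 8.26e-09).

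**Figure D2:**
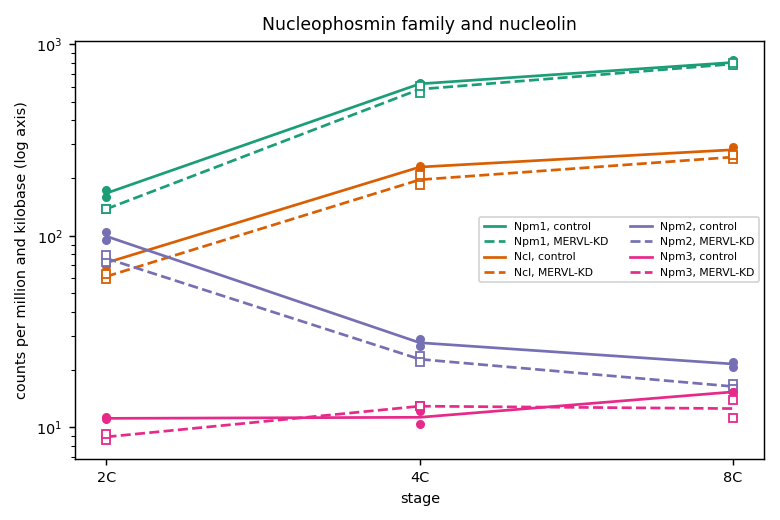
Level of Npm1, Ncl, Npm2 and Npm3 in CPM per kilobase of exon (y axis, log scale) at each stage (x axis). Filled circles and solid lines are control libraries and their means, and open squares and dashed lines are MERVL-KD libraries and their means. Npm1 and Ncl rise, Npm2 falls from 99.4 to 21.4 in control embryos, and Npm3 stays lowest.

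The RNA polymerase I subunits differed among themselves. Polr1a, the largest subunit, rose 2.69-fold, Polr1d 2.06-fold, Polr1b 1.77-fold and Polr1c 1.57-fold, all past the adjusted p threshold. Polr1e had a log2 fold change of 0.19 ± 0.13 and did not pass (SE, adjusted p = 0.22). Among the snoRNP proteins, the methyltransferase fibrillarin (Fbl) rose 2.42-fold and its partner Nop56 rose 2.05-fold. Dyskerin (Dkc1), the pseudouridine synthase, had a log2 fold change of 0.15 ± 0.11 (SE, adjusted p = 0.26). By level in control 4C embryos, the highest members of their roles were Nop56 with 90.8, Utp3 with 90.4, Nop2 with 64.6 and Polr1c with 32.1 CPM per kilobase. The lowest were Nop10 with 20.8, Utp25 with 5.20, Rrp1b with 11.1 and Polr1b with 18.2 CPM per kilobase.

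From 4C to 8C, 0 members passed the test with a 2-fold change by edgeR or DESeq2, where 1.56% of genes did. Without the fold threshold 3 rose and 1 fell, where 3.19% of genes rose and 2.68% fell, and 19 had an unadjusted p under 0.05. The share of all genes at an unadjusted p under 0.05 was not taken, so the 19 cannot be set against it. The 3 that rose were Nop53, Npm1 and Ncl, with log2 fold changes of 0.46, 0.37 and 0.30, and Nol10, a small subunit factor, fell by 0.37 on the log2 scale. The weakly expressed Nol3 and Nol4 had log2 fold changes of -0.79 and -2.28 and did not pass (adjusted p = 0.70 and 0.40, edgeR). This step depended on scaling: by library size alone, 0 rose and 7 fell without the fold threshold. With that scaling the median log2 fold change was -0.07 over members and -0.21 over all genes. In MERVL-KD embryos, 19 members rose and 3 fell at least 2-fold from 2C to 4C, where 21.2% of genes rose and 23.0% fell.

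The second question was how MERVL-KD embryos differed from control embryos of the same stage. The paper reports delayed development of MERVL-KD embryos, with more of them than of controls remaining at early cleavage stages. At 4C and 8C, the embryos picked may therefore be slower ones among controls and faster ones among MERVL-KD embryos. The part of this delay in the members' values was not tested. Each stage was fitted apart, and an adjusted p under 0.05 was called without a fold threshold. At 2C, 3 members were higher and 10 were lower in MERVL-KD embryos, where 6.7% of genes were higher and 7.39% lower. At 4C, 0 were higher and 9 lower, where 4.92% of genes were higher and 5.84% lower. At 8C, 49 members were tested (Nol3 and Nol4 had too few counts) and 0 were higher and 6 lower, where 1.5% of genes were higher and 3.56% lower. DESeq2 also called 0 higher at 4C and 8C, and by edgeR 1 member at 4C (Rrp36, 0.40) and 0 at 8C were higher at an unadjusted p under 0.05. For that unadjusted threshold the share of all genes was not taken. Changes were small: 1 member (Nol3) passed with a 2-fold change at 2C and 0 at 4C and 8C, where 6.61%, 4.54% and 1.7% of genes did. The median log2 fold change of members was -0.15 at 2C, -0.18 at 4C and -0.23 at 8C, against 0.01, 0.03 and 0.01 over all genes. Log2 fold changes lay below 0 for 33 of 51 members at 2C, 40 of 51 at 4C and 45 of 49 at 8C. For the 49 members tested at each stage, 27 (55.1%) lay below 0 at all 3 stages, as did 20.1% of 16277 genes. The 3 comparisons share no library. By role, the median log2 fold changes at 2C, 4C and 8C were -0.03, -0.16 and -0.23 for small subunit members, -0.07, -0.17 and -0.21 for large subunit members, -0.22, -0.27 and -0.27 for polymerase subunits and -0.39, -0.23 and -0.23 for snoRNP proteins.

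**Figure D3:**
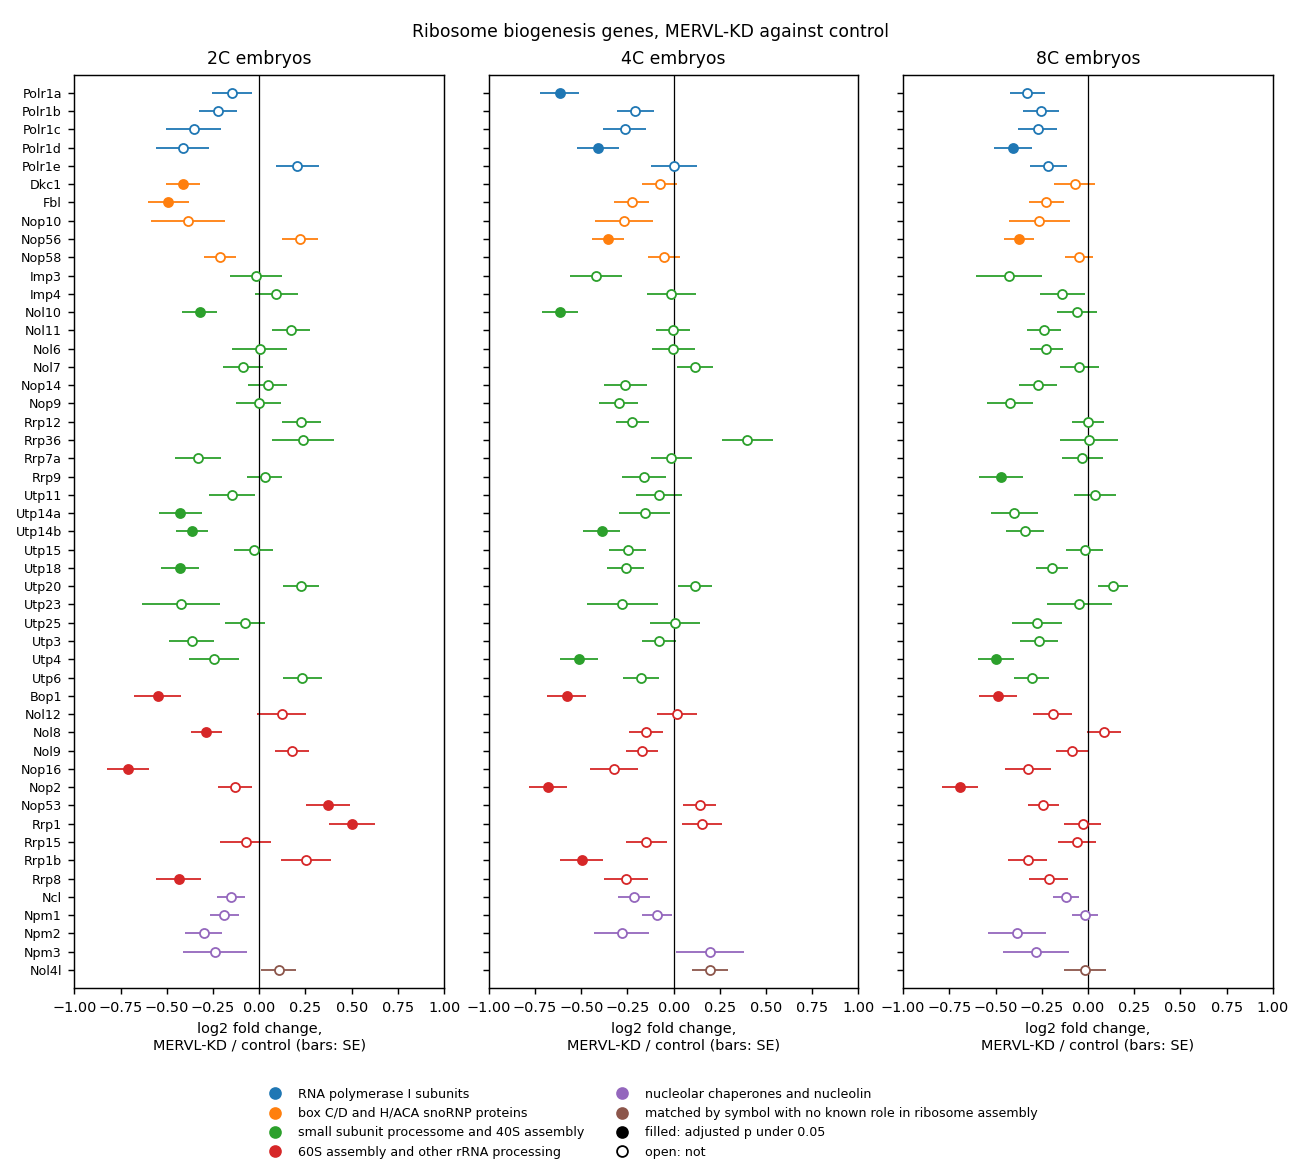
Log2 fold change of members (rows, coloured by role) in MERVL-KD against control embryos at 2C, 4C and 8C, with bars for SE. Filled points had an adjusted p under 0.05, and Nol3 and Nol4 are not drawn. Values spread to either side of 0 at 2C, and 45 of 49 members lie below 0 at 8C.

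The direction of the 2C values depended on scaling. By library size alone the median over all genes moved to 0.30 and that of members to 0.14, and 17 members were higher and 1 lower. The share of all genes called with this scaling was not taken, so its counts of members cannot be set against one. Relative to the median of all genes, the members' median was -0.16 under either scaling, and 34 of 51 members lay below it under each. A change of scaling moves all genes of a stage by nearly the same amount. Values relative to that median were therefore bound to agree, and they do not show which scaling is right. At 4C and 8C the members' medians relative to all genes were -0.20 and -0.23 with scaling by library size, and 6 and 2 members were called lower, with 0 higher at either stage. The members still called lower were Nop16 at 2C, Nop2, Polr1a, Nol10, Bop1, Utp4 and Rrp1b at 4C, and Nop2 and Utp4 at 8C. In 2C embryos repeat families took 23.6% and 25.2% of the counts in control libraries and 16.5% and 15.8% in MERVL-KD libraries. The 9 oocyte and maternal markers summed to 1328 to 1390 CPM in control and 867 to 964 CPM in MERVL-KD embryos at 2C, and 8 markers of the 2C stage to 677 to 724 and 372 to 457 CPM. At 8C, 9 markers of later cleavage and pluripotency summed to 704 to 706 CPM in control and 502 to 551 CPM in MERVL-KD embryos, and 0 of the markers of these 3 lists were at 0. The part of these shifts in the members' values was not tested.

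**Figure D4:**
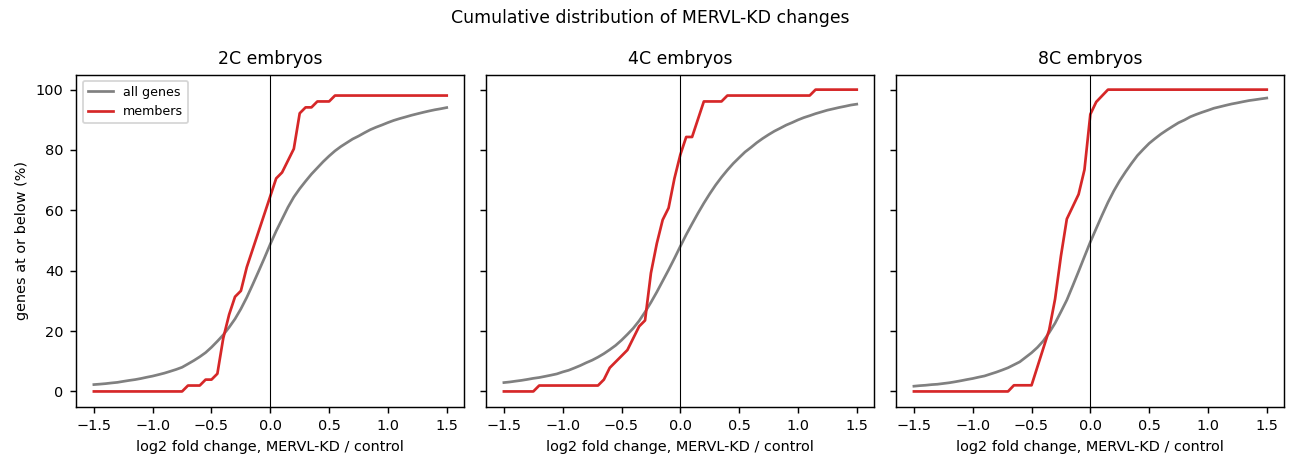
Share of genes (y axis, %) at or below each log2 fold change of MERVL-KD against control embryos (x axis), for members (red) and all genes tested (grey). At 8C, 91.8% of members and 49.5% of all genes lie below 0.

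Bop1, a large subunit factor and part of the PeBoW complex that processes the large subunit precursor, was the single member lower at all 3 stages, as were 1.24% of genes. It had 40.4 and 44.3 CPM in control and 26.9 and 31.0 CPM in MERVL-KD embryos at 2C (log2 fold change -0.55 ± 0.13, SE, adjusted p = 0.0089). At 4C it had 102 and 104 CPM in control and 72.7 and 65.3 CPM in MERVL-KD embryos (-0.58 ± 0.11, SE, adjusted p = 0.0055). At 8C it had 101 and 101 CPM against 68.2 and 76.1 CPM (-0.49 ± 0.10, SE, adjusted p = 0.019). The groups did not overlap at any stage. With scaling by library size alone, Bop1 was called lower at 4C only (-0.51, adjusted p = 0.019, edgeR). It then stood at -0.26 at 2C and -0.36 at 8C (adjusted p = 0.15 and 0.063, edgeR). Bop1 lies on the minus strand at chr15:76452989-76477277 (GRCm38), and 1.69% of its exon bases overlap Mroh1 on the other strand.

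Nop2, an rRNA methyltransferase of the large subunit, had the largest called decrease at 4C and at 8C. At 2C it had 152 and 173 CPM in control and 151 and 146 CPM in MERVL-KD embryos, and did not pass (adjusted p = 0.41, edgeR). At 4C control libraries had 187 and 187 CPM and MERVL-KD libraries 109 and 125 CPM (log2 fold change -0.68 ± 0.10, SE, adjusted p = 0.0015). At 8C they had 172 and 197 CPM against 117 and 111 CPM (-0.69 ± 0.10, SE, adjusted p = 0.0017). The groups did not overlap at any stage, and Nop2 kept both calls in each alternative fit, though its changes were under 2-fold. Nop16, also a large subunit factor, had the largest called decrease at 2C, with 53.4 and 54.8 CPM in control and 32.4 and 33.8 CPM in MERVL-KD embryos (-0.71 ± 0.11, SE, adjusted p = 5.4e-04). Its log2 fold changes at 4C and 8C were -0.32 and -0.33 and did not pass. Rrp8, which acts on rRNA, was lower at 2C (-0.44), and Nol8 at -0.29 was lower at 2C but stood at 0.00 with scaling by library size. Rrp1b, an Rrp1 relative, was lower at 4C (-0.50).

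The members higher at 2C were Rrp1, Nop53 and Nol3. Rrp1, a large subunit factor, had 27.8 and 29.3 CPM in control and 39.4 and 41.5 CPM in MERVL-KD embryos (log2 fold change 0.50 ± 0.12, SE, adjusted p = 0.013). Nop53 had 40.4 and 46.8 against 53.3 and 59.6 CPM (0.37 ± 0.12, SE, adjusted p = 0.047). Nol3, which encodes the apoptosis repressor ARC rather than a ribosome factor, had 0.26 and 0.38 against 2.69 and 1.98 CPM (2.84 ± 0.49, SE, adjusted p = 9.3e-04). The groups did not overlap for any of the 3. Nol3 is weakly expressed, and 48.2% of its exon bases overlap 4931428F04Rik on the other strand. Without control replicate 1, Nol3 alone of the 3 passed, with Rrp1 at 0.44 and Nop53 at 0.25 (adjusted p = 0.079 and 0.34, edgeR). Nop53 lost its call in 8 of 14 alternatives, also without MERVL-KD replicate 2 (0.28), with DESeq2 (adjusted p = 0.067), with its size factors, in the non-robust and joint fits, with the replicate block and with features above 1% of counts left out.

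Among RNA polymerase I subunits, Polr1a and Polr1d were lower at 4C. Polr1a had 236 and 231 CPM in control and 167 and 138 CPM in MERVL-KD 4C embryos (log2 fold change -0.62 ± 0.11, SE, adjusted p = 0.0036). At 8C it had 184 and 215 against 160 and 158 CPM and stood just outside the threshold (-0.33 ± 0.10, SE, adjusted p = 0.073). Polr1d, a subunit shared with RNA polymerase III, had 71.3 and 78.1 against 55.2 and 57.3 CPM at 4C (-0.41 ± 0.11, SE, adjusted p = 0.041) and 74.1 and 78.9 against 57.9 and 57.6 CPM at 8C (-0.41 ± 0.10, SE, adjusted p = 0.045). At 2C Polr1d had 35.6 and 34.0 against 23.2 and 29.1 CPM and did not pass (-0.41 ± 0.14, SE, adjusted p = 0.064). Groups overlapped for Polr1a at 2C, and for neither subunit at 4C and 8C. Polr1b and Polr1c did not pass at any stage, with log2 fold changes from -0.21 to -0.26 and from -0.27 to -0.35. Polr1e stood at 0.21, 0.00 and -0.21.

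**Figure D5:**
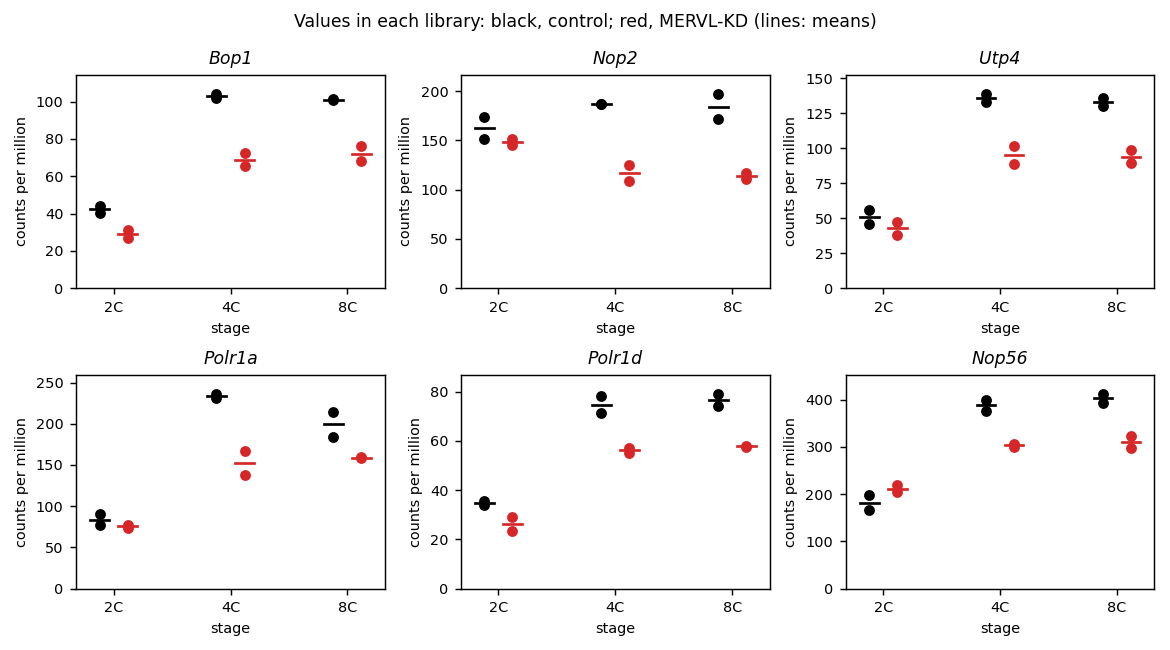
CPM in each library (y axis, scaled within the stage) of Bop1, Nop2, Utp4, Polr1a, Polr1d and Nop56 at each stage (x axis). Black points are control and red points MERVL-KD libraries, with lines at the means. At 4C and 8C every MERVL-KD library lies below both control libraries for all 6 genes. These genes were called lower from the same libraries at 4C and, except Polr1a, at 8C, so their separation adds no evidence to the calls.

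The small subunit factors held 4 lower members at 2C, 3 at 4C and 2 at 8C, of 23, where 7.39%, 5.84% and 3.56% of genes were lower. Utp4, part of the complex that first binds the precursor, was not called at 2C (45.6 and 55.8 against 47.6 and 38.0 CPM, groups overlapping). At 4C it had 139 and 133 CPM in control and 89.0 and 102 CPM in MERVL-KD embryos (log2 fold change -0.51 ± 0.10, SE, adjusted p = 0.0090). At 8C it had 136 and 130 against 89.6 and 98.5 CPM (-0.50 ± 0.10, SE, adjusted p = 0.013). Nol10 was lower at 2C (-0.32) and 4C (-0.61 ± 0.10, SE, adjusted p = 0.0020) and stood at -0.06 at 8C. Utp14b was lower at 2C (-0.36) and 4C (-0.39), and 3.18% of its exon bases overlap Acsl3 on the same strand. Utp14a and Utp18 were lower at 2C, each by 0.43 in size on the log2 scale. Rrp9, a component of the U3 snoRNP, was lower at 8C (-0.47 ± 0.12, SE, adjusted p = 0.045). Imp3 at 4C stood nearest outside the threshold (-0.42 ± 0.14, SE, adjusted p = 0.080).

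Of the 5 snoRNP proteins, Fbl and Dkc1 were lower at 2C and Nop56 at 4C and 8C. Fbl had 57.3 and 59.9 CPM in control and 42.8 and 40.6 CPM in MERVL-KD 2C embryos (log2 fold change -0.49 ± 0.11, SE, adjusted p = 0.0064). Dkc1 had 200.4 and 216 against 166 and 147 CPM (-0.41 ± 0.09, SE, adjusted p = 0.0068). Neither passed later, and Fbl stood at -0.23 at 4C and at 8C. With scaling by library size alone, Fbl and Dkc1 did not pass at 2C either (-0.20 and -0.12, adjusted p = 0.20 and 0.36, edgeR). Nop56 had 166 and 198 against 219 and 205 CPM at 2C, 376 and 400 against 306 and 299 CPM at 4C, and 394 and 411 against 298 and 323 CPM at 8C. Its log2 fold change was 0.22 ± 0.10 at 2C (SE, adjusted p = 0.16), -0.36 ± 0.09 at 4C (SE, adjusted p = 0.023) and -0.37 ± 0.08 at 8C (SE, adjusted p = 0.022). Groups of Nop56 did not overlap at any stage, with MERVL-KD libraries above control at 2C and below control at 4C and 8C. A turn between 2C and 4C was not called. The 2C difference did not pass, and neither did the change of the MERVL-KD effect from 2C to 4C (-0.50 ± 0.14, SE, adjusted p = 0.051, edgeR). The share of all genes whose groups do not overlap was not taken. On the same strand, exon bases of Nop56 overlap Gm24451 (2.44%), Gm23187 (2.1%), Snord57 (1.76%) and Gm23650 (1.71%). Nop58 and Nop10 did not pass at any stage, with log2 fold changes from -0.05 to -0.21 and from -0.26 to -0.39.

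Npm1, Npm2, Npm3 and Ncl passed at no stage by edgeR. At 2C Npm2 had 110 and 97.1 CPM in control and 80.4 and 87.4 CPM in MERVL-KD embryos and stood nearest outside the threshold (log2 fold change -0.30 ± 0.10, SE, adjusted p = 0.059). Ncl had 721 and 757 against 644 and 685 CPM at 2C (-0.15 ± 0.08, SE, adjusted p = 0.21). The log2 fold change of Npm1 was -0.19 at 2C, -0.09 at 4C and -0.02 at 8C, that of Npm2 was -0.28 at 4C and -0.38 at 8C, and that of Npm3 was -0.24, 0.20 and -0.28.

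The change of the MERVL-KD effect between stages was tested as an interaction in the 12-library fit. From 2C to 4C, 1 member passed, where 4.16% of genes did. From 2C to 8C, 2 passed, where 4.03% of genes did, and from 4C to 8C, 0 passed, where 0.624% of genes did. In that last contrast 2 members had an unadjusted p under 0.05, a threshold for which the share of all genes was not taken. DESeq2 called 1 member from 4C to 8C. Those that passed were Rrp1b (-0.67 ± 0.18, SE, adjusted p = 0.039) from 2C to 4C, and Nop56 (-0.52 ± 0.14, SE, adjusted p = 0.042) and Nop53 (-0.54 ± 0.15, SE, adjusted p = 0.042) from 2C to 8C. In simulated counts with the spread of these libraries, interaction calls held more unchanged genes than the threshold allows, so these 3 are weak calls.

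At 8C the count rested on single libraries. The 6 lower members became 2 without control replicate 1, 3 without control replicate 2, 10 without MERVL-KD replicate 1 and 12 without MERVL-KD replicate 2. Without control replicate 1, Nop56 (-0.40), Polr1d (-0.45), Utp4 (-0.47), Rrp9 (-0.54) and Bop1 (-0.49) lost their calls, with adjusted p from 0.058 to 0.11 by edgeR. Without control replicate 2, Nop56 (-0.34), Polr1d (-0.35), Rrp9 (-0.39) and Bop1 (-0.48) lost them (adjusted p from 0.063 to 0.25), and without MERVL-KD replicate 2, Rrp9 (-0.37) did.

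At 4C, Nop2, Polr1a, Nol10, Bop1 and Utp4 stayed lower at an adjusted p under 0.05 in each alternative fit and with any library left out, though none of them reached a 2-fold change. Without control replicate 1, Nop56 (-0.40), Polr1d (-0.48) and Rrp1b (-0.44) lost their calls, without control replicate 2, Utp14b (-0.30), Nop56 (-0.32) and Polr1d (-0.35) lost theirs, and without MERVL-KD replicate 1, Polr1d (-0.39) did. At 2C, Nop16 and Nol3 kept theirs in each alternative fit that tested them. Nop16 changed by under 2-fold, and Nol3 was not tested with at least 10 counts required in every library. Rrp8, at -0.42 to -0.48, lost its call without control replicate 1 or 2 or MERVL-KD replicate 1, Nol10, at -0.29 each time, without control or MERVL-KD replicate 1, and Nol8, at -0.24 to -0.30, without control replicate 1 or 2 or MERVL-KD replicate 2. Without control replicate 2, Utp14b (-0.27) and Utp14a (-0.30) lost theirs.

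A wider list of the pathway, not matched by the symbol rule, held further RNA polymerase I, small and large subunit, snoRNP and exosome genes in 5 groups. Of 124 tested at 2C, 3 were higher and 25 lower, of 125 at 4C, 1 was higher and 39 lower, and of 125 at 8C, 0 were higher and 21 lower. Over all genes, 6.7% were higher and 7.39% lower at 2C, 4.92% and 5.84% at 4C, and 1.5% and 3.56% at 8C. The list's median log2 fold changes were -0.12, -0.30 and -0.23, against 0.01, 0.03 and 0.01 over all genes. Of 40 small subunit genes 9, 17 and 5 were lower at the 3 stages, and of 45 large subunit genes 10, 14 and 12 were. Of 12 polymerase I genes 2, 3 and 2 were lower, of 12 snoRNP genes 2, 2 and 1, and of 16 exosome genes tested 2, 3 and 1. From 2C to 4C in control embryos 98 of 125 rose and 7 fell without the fold threshold, where 26.4% of genes rose and 28.7% fell, and the median was 1.07 against -0.06 over all genes. At 2C the smallest adjusted p values among lower genes were those of Nom1 (93.2 and 97.9 against 30.4 and 21.7 CPM, log2 fold change -1.87) and Ddx10 (-1.27), both small subunit factors. Nom1, at chr5:29434664-29457843, holds a site for a MERVL ASO at up to 2 mismatches and was lower at each stage (-1.87, -1.70 and -1.44). At 4C Nom1 was followed by the large subunit ATPase Mdn1 (-0.87), and at 8C by Tbl3 (-0.72), a small subunit factor. Of 5 transcription factors of the MYC network (Myc, Mycn, Mycl, Max and Mnt), 2 were higher at 2C, 1 was higher at 4C and 1, Mycl, was lower at 8C (-1.13, named after its value was seen). Together with them, the higher genes with the smallest adjusted p were Mycn and Mnt at 2C, and Mycn and Taf1d (0.30), a factor of RNA polymerase I initiation, at 4C. Mycn, a MYC family activator, had 1.26 and 1.12 CPM in control and 10.5 and 8.86 CPM in MERVL-KD embryos at 2C, without overlap (log2 fold change 3.02 ± 0.27, SE, adjusted p = 1.7e-06). Mnt, a repressor of the same network, was higher at 2C (0.79). Mycn was higher at 4C too (1.50), and at 8C it had 3.50 and 4.95 against 1.08 and 3.34 CPM and did not pass (adjusted p = 0.31, edgeR).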

How the data were processed

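Per the labels and the study's methods, the authors aligned total RNA-seq reads (SMART-Seq Stranded kit, random hexamers, rRNA depletion) with STAR 2.5.3a to GRCm38 and counted unique alignments per GENCODE gene and RepeatMasker family (featureCounts). The deposited counts are raw, and the other value in the deposited files is exon length. The strand setting of the counting is not given in the sources used here, so genes that overlap on opposite strands may share reads. From 71.8% to 74.7% of low counts were even, as when both mates of a pair are counted, so counts overstate independent fragments.

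Counts were filtered with filterByExpr, scaled by TMM and tested with the robust quasi-likelihood test of edgeR 4.0.16 in R 4.3.3, over 56326 names including 1035 repeat families. P-values were adjusted by Benjamini-Hochberg over all features tested. Shares of all genes called were taken from the main fits at an adjusted p under 0.05. Counts from other fits or at an unadjusted p have no such share beside them. With 2 libraries a group, p-values set a change against the spread between these libraries, which edgeR draws toward a trend over all features. SE by edgeR is the size of the log2 fold change divided by the square root of the F statistic. Each stage was fitted apart for MERVL-KD against control, and 1 fit of 12 libraries gave the stage changes and interactions. CPM beside MERVL-KD changes were scaled by TMM within the stage, those beside stage changes by TMM over 12 libraries. Replicates of a group differed by more than sampling noise. The ATAC-seq samples were not analysed here.

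Members, lists and tests were chosen with earlier results of these data known. Named were members past a test, the 3 largest stage changes each way, the Polr1 and Npm genes, Ncl, Fbl and Dkc1, the highest and lowest of a role, those nearest the threshold, and the 2 pathway genes each way with the smallest adjusted p. Alternatives were DESeq2 1.42.0, its size factors, library size, 2 other filters, a non-robust fit, a replicate block, a joint fit, features above 1% left out, counts divided by 2, another calling rule and each library left out. The fits were tested on simulated data.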

Additional observations from a re-analysis of the deposited data

Results flagged for a closer look

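Interaction contrasts called the MERVL-KD effect different between stages for 3 members. From 2C to 4C this was 1 member, where 4.16% of genes were called, and from 2C to 8C 2, where 4.03% were. Members were thus not called more often than all genes. Rrp1b had 29.8 and 35.5 CPM in control and 42.0 and 36.0 CPM in MERVL-KD embryos at 2C. At 4C it had 92.8 and 85.7 against 58.6 and 67.9 CPM. Its MERVL-KD effect changed by -0.67 from 2C to 4C on the log2 scale. That of Nop56 changed by -0.52 from 2C to 8C. That of Nop53 changed by -0.54 from 2C to 8C, where it had 210 and 198 CPM in control and 176 and 170 CPM in MERVL-KD 8C embryos. Leaving out control 2C replicate 1 ended all 3 calls, with changes of -0.52, -0.36 and -0.40 and adjusted p of 0.20, 0.24 and 0.23 by edgeR. Each call was also lost without 4 other libraries: MERVL-KD 2C replicate 1, both control 4C replicates and MERVL-KD 4C replicate 1 for Rrp1b (-0.72 to -0.56), MERVL-KD 2C replicates 1 and 2, control 8C replicate 2 and MERVL-KD 8C replicate 1 for Nop56 (-0.56 to -0.45), and MERVL-KD 2C replicates 1 and 2, control 8C replicate 1 and MERVL-KD 8C replicate 1 for Nop53 (-0.61 to -0.45).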

How the results depend on the processing

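Of 31 single calls of a member, 8 kept direction and threshold in every alternative fit that tested them (the 2-fold rule, given as counts here, was not among these), 30 kept direction and 1, Nol8 at 2C, reversed to 0.0024 with scaling by library size. That scaling also gave 17 higher and 1 lower members at 2C, 2 lower at 8C, 1 lower from 2C to 4C in control embryos, 8 and 9 interactions (4C and 8C against 2C), and medians of 0.14, -0.11 and -0.10 at 2C, 4C and 8C. A 2-fold rule left 1 higher and 0 lower at 2C, and 0 lower at 4C and 8C, while no fold threshold gave 35 rises and 5 falls from 2C to 4C and 3 and 1 from 4C to 8C. DESeq2 called 2, 1 and 5 interactions (4C against 2C, 8C against 4C, 8C against 2C). A joint fit gave a median of -0.23 at 2C, and filters of at least 1 count in any library and at least 10 in every library gave -0.20 at 8C. A replicate block gave 10 lower members at 8C and 2 interactions (4C against 2C). Deviations of same-numbered control and MERVL-KD libraries had correlations of -0.05, 0.01 and 0.03 at 2C, 4C and 8C. The labels do not say whether same-numbered libraries were prepared together.

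With each library left out in turn, 1 to 4 members were higher and 7 to 13 lower at 2C, 6 to 11 lower at 4C and 2 to 12 lower at 8C. In control embryos 15 to 19 rose and 2 fell from 2C to 4C. Interactions ranged from 0 to 3 (4C against 2C), 0 to 1 (8C against 4C) and 0 to 3 (8C against 2C). Medians ranged from -0.22 to -0.074, -0.21 to -0.15 and -0.22 to -0.20.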
